A study of Homo sapiens with 20 samples.

Results

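The 78 genes described here encode proteins named as parts of the mitochondrial ribosome. They were chosen by name and level: symbols that start with MRPL or MRPS followed by digits, without a hyphen and without the ending of a pseudogene, and an average over 12 RNAseq libraries of 50 normalized counts or more. Earlier results of these data were known when the choice was made. They made up 78 of 28051 named genes, 49 of them with MRPL symbols (large subunit) and 29 with MRPS symbols (small subunit), and 4 further symbols were left out as hyphenated or as pseudogenes. None was at 0 in any library, all 78 passed the filter on low values, and their means ran from 121.8 normalized counts (MRPS24) to 6914 (MRPL3).

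RNAseq was done on HL60, an established human acute myeloid leukemia cell line that matures towards neutrophils under all-trans retinoic acid (ATRA). The 4 groups were Cas9 control cells in 0.01% DMSO, Cas9 control cells in 1 µM ATRA, HK3-null cells in 0.01% DMSO and HK3-null cells in 1 µM ATRA, all for 36 h, with 3 libraries each from 200000 cells per sample. Cells of both genotypes expressed Cas9, and the study's methods describe a lentiviral CRISPR vector, puromycin selection and growth of single clones by limiting dilution. Every library labelled HK3-null carries 1 and the same knockout label, so that a clone and the loss of HK3 cannot be told apart, and p-values speak for the spread between these samples, which the labels do not tie to separate clones.

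Mitochondria hold their own ribosome, which makes the few proteins encoded by mitochondrial DNA, all of them subunits of the respiratory chain and of ATP synthase. Its ribosomal RNAs come from mitochondrial DNA, while every one of its proteins is encoded in the nucleus, made in the cytosol and imported. The genes lie scattered over the chromosomes. Symbols do not map perfectly onto structure: MRPS30 and MRPS18A are now placed in the large subunit, and MRPS36 (KGD4 in RefSeq) is now known as a component of the oxoglutarate dehydrogenase complex.

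The deposited values are counts scaled between libraries, called normalized counts here, and their sums ran from 29053838 to 31548189 per library with an estimated depth before scaling of 22700000 to 37000000 counts. HK3, the hexokinase gene targeted in the HK3-null cells, was at 90, 65 and 105 normalized counts in Cas9 control DMSO and at 344, 302 and 346 in HK3-null DMSO. In ATRA it was at 1305, 1298 and 1850 in Cas9 control and at 1384, 1285 and 1975 in HK3-null. The label HK3-null thus does not come with less HK3 RNA, and it is used below only as the libraries' name. RNA counts do not measure the protein. The paper reports that its knockout clones were checked by sequencing genomic DNA and by mass spectrometry of the protein. All 8 myeloid markers of HL60, among them MPO and ELANE, were above 0 in every group. Their summed level was lower in ATRA (564495 to 718561 normalized counts over both genotypes) than in DMSO (757088 to 851553). The 7 markers of the ATRA response summed to 1302 to 1659 in Cas9 control DMSO, 15289 to 16571 in Cas9 control ATRA, 9136 to 10616 in HK3-null DMSO and 85944 to 94212 in HK3-null ATRA, so that this list moved with both factors, and its part in the results was not tested. CYP26A1 alone among them was at 0, in the whole of Cas9 control DMSO. Gene by gene, the median log2 change of the 7 markers with ATRA was 5.46 in Cas9 control and 2.49 in HK3-null. At an adjusted p under 0.05 in limma, 4 of them rose less with ATRA in HK3-null and 1 rose more. Of all tested genes, 4.64% had such a lower and 4.48% such a higher interaction of genotype and treatment. Markers of other blood and epithelial cells were low: the 3 T cell markers summed to at most 12 normalized counts and the 3 erythroid markers to at most 10, and the 4 epithelial markers to at most 60. MS4A1 was at 0 in every library, while the 3 B cell markers together summed to between 46 and 110. The 3 megakaryocyte markers summed to at most 29, with PF4 at 0 throughout.

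The mitochondrial ribosome took its largest share of the RNA in Cas9 control DMSO and its smallest in HK3-null ATRA. The 78 members summed to 6953, 6726 and 6823 per 1000000 normalized counts in Cas9 control DMSO and to 5855, 5609 and 5543 in Cas9 control ATRA. In HK3-null the sums were 5507, 5422 and 5463 in DMSO and 4157, 4124 and 4018 in ATRA. No library of HK3-null reached the lowest library of Cas9 control in the same treatment, and no ATRA library reached the lowest DMSO library of its genotype. Each subunit showed the same order by itself, with means, in the same unit, of 4184 ± 74.4 (large) and 2650 ± 40.1 (small) in Cas9 control DMSO against 2602 ± 61.5 and 1498 ± 17.9 in HK3-null ATRA (SD, n = 3). In a bulk sample, a smaller share of cells that express a gene and less RNA per cell cannot be told apart.

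**Figure D1:**
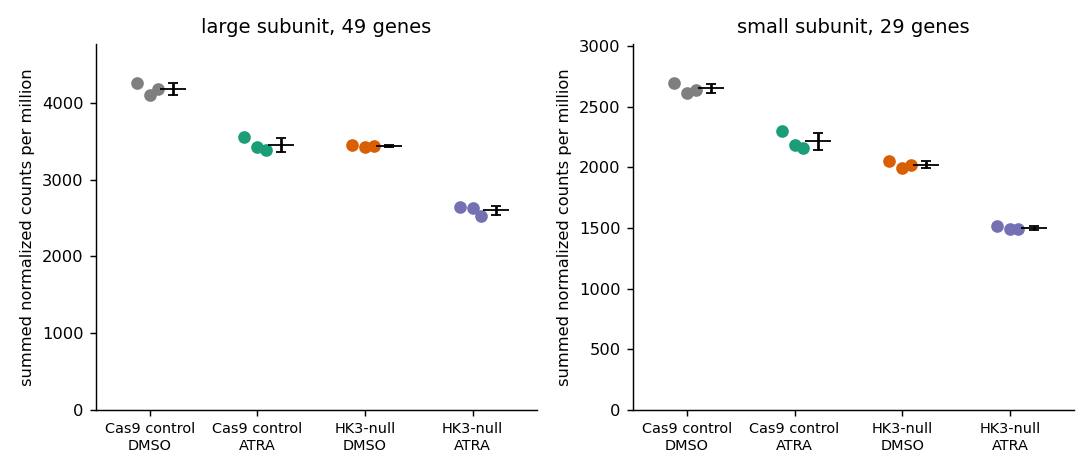
Summed level per 1000000 normalized counts (y axis) of the 49 MRPL genes (left) and the 29 MRPS genes (right) in the 4 groups (x axis). Coloured points are libraries, and black marks give the mean with its SD over 3 libraries. HK3-null ATRA is lowest in both panels, with means of 2602 and 1498.

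Gene by gene the same order prevailed. In 63 of the 78 members (80.8%) HK3-null ATRA had the lowest of the 4 group means, which was so for 30.4% of all 13256 tested genes. Cas9 control DMSO had the highest mean in 60 members (76.9%), against 28.1% of all tested genes. Libraries of a group lay close together for these genes, with a median coefficient of variation of 3.54% to 6.46% per group.

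**Figure D2:**
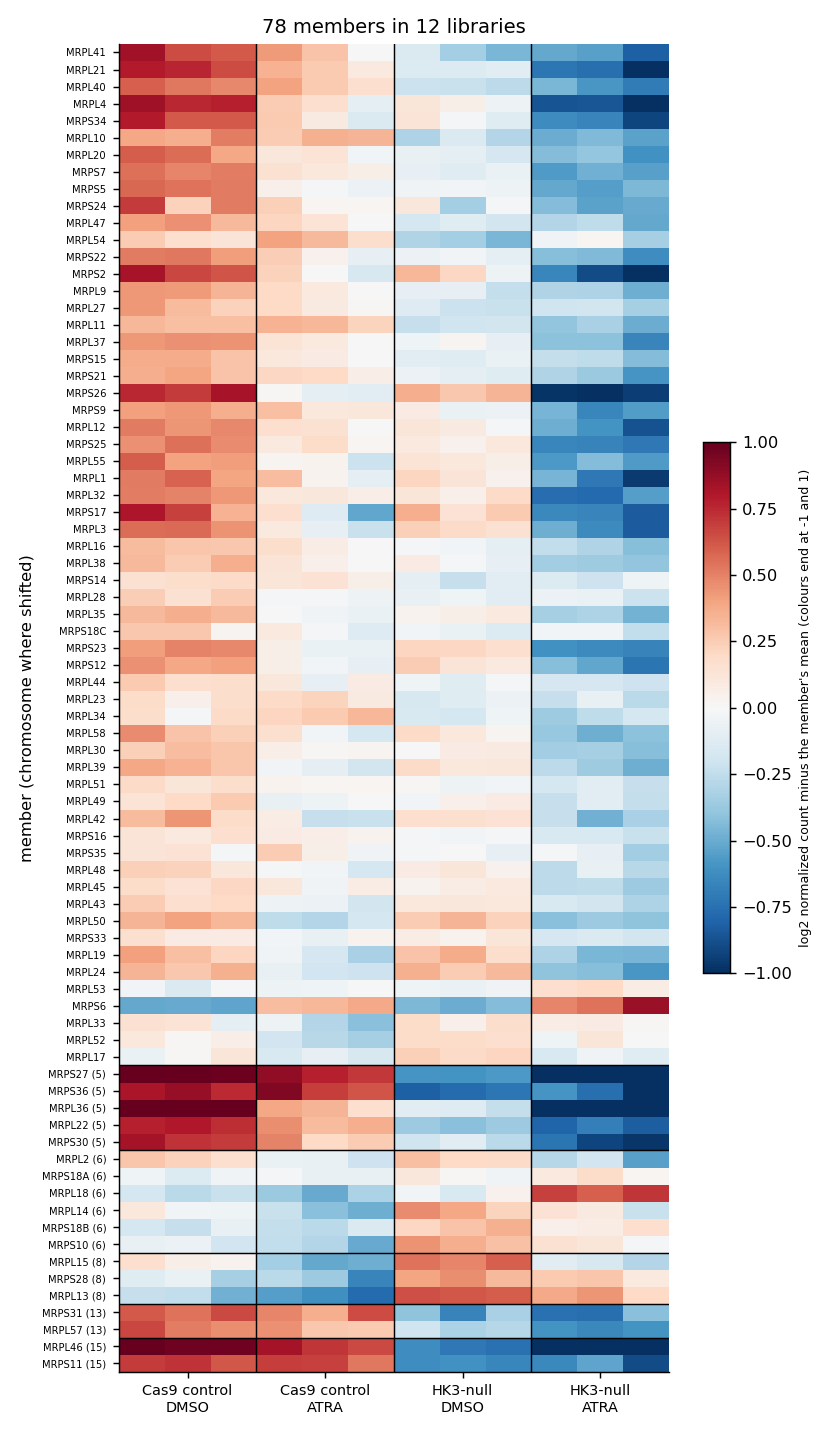
Each row is 1 of the 78 members and each column 1 of the 12 libraries, replicate 1 to 3 from left to right within a group. Colour gives the log2 normalized count minus the member's mean over all 12 libraries, with colours ending at -1 and 1. The upper block holds the 60 members on chromosomes without a common shift, and the blocks under it hold the members on chromosomes 5, 6, 8, 13 and 15 with the chromosome in brackets. Most rows run from red in Cas9 control DMSO to blue in HK3-null ATRA, with MRPS6 as a visible exception.

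The first question was how the genotypes differ in DMSO. Relative to Cas9 control, 53 of the 78 members were lower in HK3-null and 8 were higher at an adjusted p under 0.05 in limma, and 17 did not pass. Among all tested genes 55.0% passed (27.1% lower and 27.9% higher), and among genes that average 50 or more normalized counts, as the members do, 29.2% were lower and 29.9% higher. The median log2 fold change of the members was -0.33, while that of all tested genes was 0.003. Groups did not overlap, with HK3-null lower, in 57 members (background 31.9%) and, with HK3-null higher, in 10 (31.8%). Most of these differences were small: 17 lower and 1 higher member reached 1.5-fold, against 14.7% and 17.4% of all tested genes.

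In ATRA, the same comparison gave 60 lower and 12 higher members, with 6 not passing and a median log2 fold change of -0.42. The background was 59.1% passing (29.5% lower and 29.6% higher), or 31.5% lower and 32.0% higher among genes that average 50 or more normalized counts. Here 26 lower and 3 higher members reached 1.5-fold (background 17.6% and 18.8%), and groups did not overlap in 58 members with HK3-null lower (31.2%) and in 12 with HK3-null higher (32.2%). The DMSO and ATRA comparisons use different libraries of the same genotypes, and 51 members were lower in both, which is 51 of 53 and 51 of 60. A further 7 were higher in both. The share of all tested genes that passed in both was not counted, so these overlaps are not read as a trait of the members. MRPL and MRPS genes gave like medians in DMSO (-0.27 and -0.42) and in ATRA (-0.40 and -0.56).

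Most of the members that were higher in HK3-null, 7 of 8 in DMSO and 8 of 12 in ATRA, lie on chromosomes 6 and 8. On 5 chromosomes the tested genes as a whole shifted between the genotypes by a median of at least 0.3 on the log2 scale, in the same direction in DMSO and in ATRA. The medians over all tested genes in DMSO and in ATRA were -0.75 and -0.78 on chromosome 5, -0.57 and -0.57 on chromosome 13, and -0.94 and -0.97 on chromosome 15. They were 0.52 and 0.57 on chromosome 6 and 1.10 and 1.06 on chromosome 8. Of the members, 18 lie on these chromosomes (23.1%, against 17.7% of all tested genes). DNA copy number was not analysed here, and a change of copy number in the HK3-null cells and another difference that acts over whole chromosomes cannot be told apart.

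All 9 members on chromosomes 5, 13 and 15 were lower in HK3-null in both treatments, and they hold the 6 largest falls of the family in DMSO. MRPS27, a small-subunit protein with pentatricopeptide repeats on chromosome 5 (chr5:72219403-72320240), had 7791, 7748 and 7499 normalized counts in Cas9 control DMSO and 2524, 2513 and 2552 in HK3-null DMSO. In ATRA it had 6998, 6495 and 6208 against 1734, 1609 and 1542. The groups were far apart in both treatments, with log2 fold changes of -1.60 ± 0.056 in DMSO and -2.01 ± 0.056 in ATRA (± SE; adjusted p = 2.03e-09 and 3.93e-10 in limma). MRPS36, also on chromosome 5, went from 994, 1034 and 950 in Cas9 control DMSO to 321, 331 and 343 in HK3-null DMSO. Its log2 fold changes were -1.58 in DMSO and -1.54 in ATRA. MRPL36, a small protein with a bacterial counterpart, had log2 fold changes of -1.217 and -1.496, and MRPL22, whose bacterial counterpart lines the exit tunnel, had -1.15 in both treatments. MRPS30 changed by -0.95 in DMSO and -1.19 in ATRA. On chromosome 13, MRPS31 changed by -1.07 and -1.14 and MRPL57 by -0.81 and -0.94.

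The pair on chromosome 15 shares a promoter. MRPL46, a protein found in mitochondrial but not bacterial ribosomes (chr15:88459478-88467388, minus strand), and MRPS11 (chr15:88467708-88480776, plus strand) start 320 bases apart and run in opposite directions. MRPL46 had 1319, 1248 and 1245 normalized counts in Cas9 control DMSO and 413, 386 and 379 in HK3-null DMSO. In ATRA it had 1132, 1041 and 1002 against 310, 309 and 305. MRPS11 had 1484, 1502 and 1406 in Cas9 control DMSO and 592, 601 and 580 in HK3-null DMSO. No HK3-null library came near a Cas9 control library for either gene. The log2 fold changes in DMSO and ATRA were -1.69 and -1.78 (SE 0.067) for MRPL46 and -1.31 and -1.32 (SE 0.089) for MRPS11, with all 4 adjusted p-values at or under 3.23e-07 in limma. The 250 bases before the start of MRPS11 (RefSeq, GRCh38.p14, plus strand, chr15:88467458-88467707) overlap those of MRPL46 and are shown because both genes and an ATACseq region over them were lower together; they hold none of the 4 motifs searched.
MRPS11: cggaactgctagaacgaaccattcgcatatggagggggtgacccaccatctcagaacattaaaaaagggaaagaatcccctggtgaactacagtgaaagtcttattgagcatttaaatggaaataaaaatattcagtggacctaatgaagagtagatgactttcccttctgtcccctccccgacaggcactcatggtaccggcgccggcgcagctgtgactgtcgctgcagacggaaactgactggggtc

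On chromosomes 6 and 8 the direction was the opposite. The 3 members on chromosome 8 were higher in HK3-null in both treatments. MRPL13 (chr8:120395437-120445150) had 1346, 1328 and 1128 normalized counts in Cas9 control DMSO and 2463, 2430 and 2401 in HK3-null DMSO, and 1077, 1030 and 925 against 2046, 2138 and 1806 in ATRA. The groups did not overlap, and the log2 fold changes were 0.94 and 0.98 (SE 0.087; adjusted p = 3.46e-06 and 2.11e-06 in limma). MRPS28 changed by 0.57 and 0.64, and MRPL15, which has a bacterial counterpart, by 0.46 and 0.26. Of the 6 members on chromosome 6, 4 were higher in DMSO. MRPS10 changed by 0.48 and 0.43, MRPS18B by 0.44 and 0.31, and MRPL14 by 0.35 and 0.38, in DMSO and ATRA. MRPL14 in DMSO rested on HK3-null DMSO replicate 1, without which its value was 0.29 (adjusted p = 0.0625 in limma). MRPL18, the counterpart of a bacterial protein that binds the smallest ribosomal RNA, changed by 0.18 in DMSO and 1.06 in ATRA. Its DMSO call (adjusted p = 0.0389 in limma) was lost without any of 5 libraries: Cas9 control DMSO replicates 2 and 3, HK3-null DMSO replicates 1 and 3, and HK3-null ATRA replicate 1, where its values were 0.16, 0.18, 0.17, 0.13 and 0.18. MRPL2 and MRPS18A did not pass in DMSO (0.01 and 0.10). In ATRA they had -0.23 (adjusted p = 0.0373) and 0.15 (0.0421). The MRPL2 call was lost without Cas9 control ATRA replicate 1 or 2, Cas9 control DMSO replicate 2 or HK3-null ATRA replicate 3 (-0.20, -0.20, -0.23 and -0.12). That of MRPS18A was lost without any of 7 libraries: all 3 of Cas9 control ATRA, Cas9 control DMSO replicate 1, HK3-null ATRA replicates 1 and 2, and HK3-null DMSO replicate 2, at 0.11 to 0.17. With the median of each chromosome taken away, each of these positive values except that of MRPL18 in ATRA turned negative.

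Outside these 5 chromosomes, 44 of 60 members were lower in DMSO, 1 was higher and 15 did not pass, with a median of -0.33. Of all tested genes on those chromosomes 24.4% were lower and 26.2% higher. In ATRA 50 were lower, 4 were higher and 6 did not pass, with a median of -0.42 and a background of 27.1% lower and 28.5% higher. The higher members, named after their values were seen, were MRPL17 in DMSO (0.19) and MRPL33, MRPL52, MRPL53 and MRPS6 in ATRA (0.31, 0.29, 0.18 and 0.29). MRPL17 lost its call without Cas9 control DMSO replicate 1 or HK3-null DMSO replicate 1 (0.15 and 0.18), MRPL33 without Cas9 control ATRA replicate 3 (0.23), and MRPL53 without HK3-null ATRA replicate 1 or 2 (0.17 and 0.16). Among the highest in counts, MRPL3 changed by -0.33 in DMSO and -0.58 in ATRA, MRPS34 by -0.67 and -0.81, and MRPL37 by -0.48 and -0.57. MRPS24, the lowest in counts, had 191, 138 and 169 in Cas9 control DMSO and 127, 93 and 116 in HK3-null DMSO (-0.57 ± 0.16; adjusted p = 0.0102 in limma), and it shares exons with the read-through gene URGCP-MRPS24.

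Whether a member kept its level where its surroundings shifted was read from its neighbours, up to 20 tested genes on each side with members left out. In DMSO, the 10 members whose neighbours were lower by at least 0.3 had a median of -1.18 beside -0.69 for the neighbours. The 58 members with neighbours within 0.3 had -0.33 beside 0.01, and the 10 with higher neighbours had 0.40 beside 0.58. The member lay below its neighbours in 10 of 10, 51 of 58 and 10 of 10, and in 71 of 78 in all. In ATRA the medians were -1.25 beside -0.78, -0.42 beside 0.02 and 0.35 beside 0.64, and 69 of 78 members lay below their neighbours. Where the surroundings shifted, the members' median lay on the same side of 0 as that of the neighbours and lower than it. Where the neighbours stayed near 0, the members' median was lower than theirs as well. A least-squares line of members on neighbours had a slope of 0.96 and an intercept of -0.35 in DMSO and 1.03 and -0.45 in ATRA, where a slope of 0 would mean that levels did not follow the neighbours. The same line over 12866 other tested genes had slopes of 1.23 and 1.22 and intercepts of 0.14 and 0.11. Taken per replicate number, slopes were 0.99 to 1.01 in DMSO and 0.99 to 1.08 in ATRA. Pearson's r over the 78 members was 0.84 and 0.78 (Spearman's rho 0.52 and 0.51); these are genes of the same 12 libraries and no replicates, so no p is given. For 82 genes of cytosolic ribosomal proteins the slope was 0.95 and 0.93 with intercepts nearer 0 (-0.12 and -0.14). Pearson's r was 0.863 and 0.856 for these 82 genes, and 0.198 and 0.193 for the 12866 other genes. Of the latter, 6437 lay below their neighbours in DMSO and 6439 in ATRA.

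**Figure D3:**
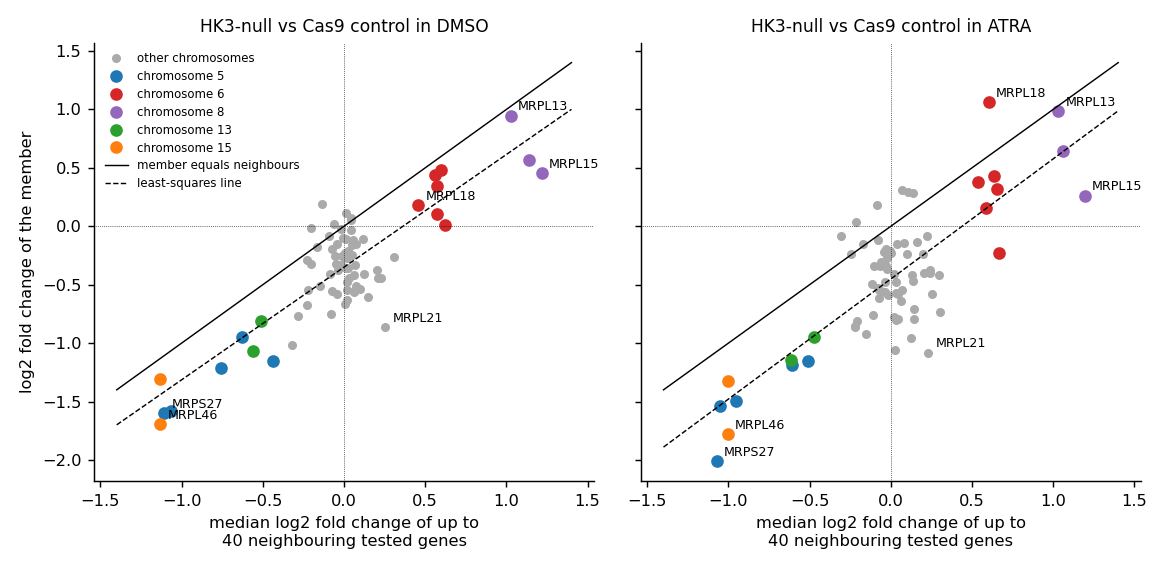
Log2 fold change of each of the 78 members, HK3-null over Cas9 control (y axis), against the median log2 fold change of its neighbouring tested genes (x axis), in DMSO (left) and in ATRA (right). Colours mark the chromosomes with a common shift, the solid line marks equality and the dashed line is the least-squares line. Points run parallel to the solid line and mostly under it, with 71 of 78 under it in DMSO and 69 of 78 in ATRA.

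ATACseq, which measures open chromatin, was available as fragment density (signal) in 8286 regions and 8 libraries, 2 for each group. All regions had been selected for a 1.5-fold or larger difference between the genotypes in ATRA, so their values are a description. Of these regions, 15 list 1 or more of 14 members, and 10 of the 15 lie on the shifted chromosomes. The share of all 8286 regions on those chromosomes was not counted, so the 10 of 15 is not read as a result about the members. The start sites of MRPL46 and MRPS11 lie in 1 region (chr15:88467122-88467920) with signals of 157 and 138 in Cas9 control DMSO, 87.9 and 68.0 in HK3-null DMSO, 153 and 115 in Cas9 control ATRA, and 39.04 and 74.96 in HK3-null ATRA. Its log2 ratios of means were -0.92 in DMSO and -1.23 in ATRA, beside the falls in RNA above. The region over the start of MRPL13 was higher in HK3-null, by 1.21 and 1.13 on the log2 scale, and that over MRPS28 by 1.15 and 0.92. A region 15308 bases from the start of MRPL18, which also lists PNLDC1, had ratios of 0.08 in DMSO and 1.20 in ATRA, beside RNA changes of 0.18 and 1.06. Off the shifted chromosomes, a region at the far end of MRPL21 (chr11:68890910-68891344), 12488 bases from its start, was lower, at -2.03 and -3.53, and MRPL21, named after its values were seen, had RNA changes of -0.86 and -1.08. A region 13598 bases from the start of MRPS15, which also lists OSCP1, was higher by 3.08 and 3.49. MRPS15 RNA changed the other way, by -0.44 and -0.37, and the signal cannot be assigned to either listed gene.

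The second question was what 36 h of ATRA did in each genotype. In Cas9 control, 54 of the 78 members were lower in ATRA, 1 was higher and 23 did not pass, with a median log2 fold change of -0.29. Among all tested genes 41.6% passed (21.3% lower and 20.3% higher), and among genes that average 50 or more normalized counts 25.1% were lower and 21.8% higher. In HK3-null, 57 were lower, 4 higher and 17 did not pass, with a median of -0.35 and a background of 49.0% passing (25.1% lower and 24.0% higher), or 28.7% lower and 26.2% higher among genes that average 50 or more normalized counts. Groups did not overlap, with ATRA lower, in 62 members in Cas9 control (background 25.9%) and in 63 in HK3-null (29.0%). With ATRA higher they were apart in 2 and 3 members (25.4% and 29.6%). At 1.5-fold, 8 members were lower in Cas9 control (7.79% of all tested genes) and 21 in HK3-null (12.9%), and 1 and 2 were higher (11.2% and 13.6%). Of the 60 members off the shifted chromosomes, 43 were lower and 1 was higher in Cas9 control (21.8% and 20.6% of all tested genes there), and 45 and 3 in HK3-null (25.3% and 24.5%). The treatment comparisons share no library, and 49 members were lower in both, a count for which no share of all tested genes was taken.

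MRPS26, a small-subunit protein without a bacterial counterpart (chr20:3046052-3048250), had the largest fall. It had 2445, 2354 and 2564 normalized counts in Cas9 control DMSO and 1457, 1359 and 1334 in Cas9 control ATRA, and 1863, 1741 and 1827 in HK3-null DMSO against 733, 661 and 752 in HK3-null ATRA. No libraries overlapped between treatments in either genotype, and the log2 fold changes were -0.83 ± 0.065 and -1.34 ± 0.065 (adjusted p = 2.01e-06 and 2.44e-08 in limma). MRPL4, whose bacterial counterpart reaches into the exit tunnel, had 6640, 6205 and 6331 in Cas9 control DMSO, 4395, 4139 and 3467 in Cas9 control ATRA, 4009, 3839 and 3557 in HK3-null DMSO, and 2021, 2032 and 1690 in HK3-null ATRA. Its changes with ATRA were -0.68 and -0.99. MRPS2 changed by -0.68 and -1.06, MRPL36 by -0.76 and -1.04, and MRPS17 by -0.77 and -0.97, in Cas9 control and in HK3-null. MRPS17 shares exons with an annotated gene that has no symbol, so its counts are less certain, as are those of MRPL46, MRPL2 and MRPS28 for the like reason. It also varied most between libraries, with a coefficient of variation of 23.4% in Cas9 control ATRA.

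MRPS6, a small-subunit protein with a bacterial counterpart (chr21:34073578-34143030), was the member that rose with ATRA in both genotypes. It had 945, 952 and 935 normalized counts in Cas9 control DMSO and 1670, 1699 and 1753 in Cas9 control ATRA, and 988, 954 and 999 in HK3-null DMSO against 1886, 1962 and 2447 in HK3-null ATRA. The groups did not overlap, with log2 fold changes of 0.85 ± 0.084 and 1.09 ± 0.084 (adjusted p = 1.25e-05 and 1e-06 in limma). SLC5A3, the gene of an inositol transporter, shares exons with MRPS6 on the same strand, and it went from 759, 771 and 844 to 2492, 2409 and 2342 in Cas9 control and from 1116, 1171 and 1460 to 4246, 4064 and 5116 in HK3-null. Reads of the shared exons could have been counted for either gene, so the rise of MRPS6 is uncertain. In HK3-null, MRPL18 (0.71), MRPL53 (0.20) and MRPL54 (0.25) were higher too, MRPL53 and MRPL54 being named after their values were seen. MRPL53 lost its call without HK3-null ATRA replicate 2 (0.17). MRPL54 kept it only without Cas9 control ATRA replicate 1 or 3 or HK3-null ATRA replicate 3, and had 0.18 to 0.28 without each of the other 9 libraries.

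**Figure D4:**
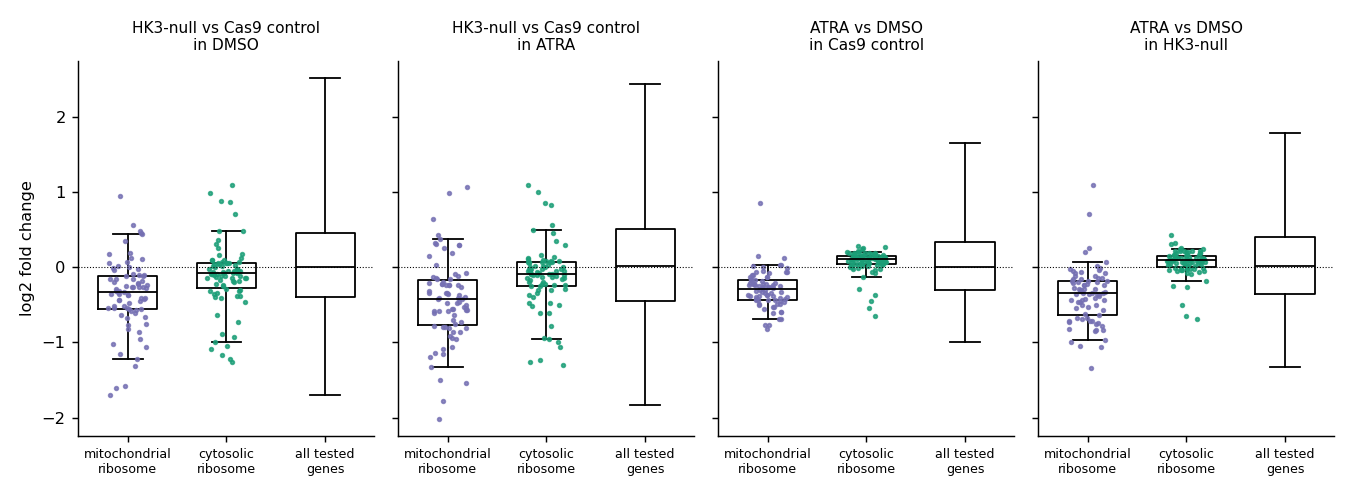
Log2 fold changes (y axis) of the 78 members, of 82 genes of cytosolic ribosomal proteins and of all 13256 tested genes (x axis) in the 4 comparisons (panels). Points are genes, boxes span the quartiles with the median, and whiskers reach the 5th and 95th percentiles. The members' medians of -0.33, -0.42, -0.29 and -0.35 lie under those of both other sets in every panel.

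Whether the response to ATRA differed between the genotypes was tested itself, as the interaction of genotype and treatment. It passed in 6 of the 78 members (1 higher, 5 lower), against 9.12% of all tested genes (4.48% higher, 4.64% lower) and against 5.26% higher and 5.39% lower among genes that average 50 or more normalized counts. The median over the members was -0.09. MRPL18 alone reached 1.5-fold, which 2.47% (higher) and 2.83% (lower) of all tested genes did. With the replicate number as a block, which pairs the libraries here, it passed in 20 members (2 higher, 18 lower), against 10.3% higher and 11.5% lower of all tested genes in that fit. MRPL18 (chr6:159789812-159798429) stood out. It had 2521, 2359 and 2440 normalized counts in Cas9 control DMSO and 2209, 2007 and 2287 in Cas9 control ATRA, and 2794, 2560 and 2942 in HK3-null DMSO against 4584, 4322 and 4672 in HK3-null ATRA. The change with ATRA was -0.17 in Cas9 control (adjusted p = 0.0565 in limma) and 0.71 in HK3-null, and the difference of 0.88 ± 0.094 had an adjusted p of 0.000178. The gene starts 865 bases from TCP1, which encodes a subunit of the chaperonin TRiC and runs the other way. TCP1 had 18541, 17928 and 16481 normalized counts in Cas9 control DMSO, 14135, 11952 and 11406 in Cas9 control ATRA, 20186, 19921 and 18683 in HK3-null DMSO and 20475, 19497 and 16817 in HK3-null ATRA. Its interaction of 0.45 ± 0.13 did not pass (adjusted p = 0.0539 in limma).

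In the other 5 members the fall with ATRA was larger in HK3-null. MRPS26, with the counts given above, had an interaction of -0.51 ± 0.091, and MRPS27 of -0.41 ± 0.079. MRPL32, a large-subunit protein that is cut by a mitochondrial protease on import, had 1616, 1599 and 1527 in Cas9 control DMSO, 1222, 1224 and 1186 in Cas9 control ATRA, 1232, 1171 and 1293 in HK3-null DMSO and 670, 661 and 774 in HK3-null ATRA. Its interaction was -0.43 ± 0.097. MRPS25 and MRPS23, outside the rule for named genes and named because they complete the 6, had -0.37 and -0.34. Adjusted p-values in limma ran from 0.00476 to 0.0182 over these 5, and each of the 6 interactions passed in all 12 fits that left out a library.

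**Figure D5:**
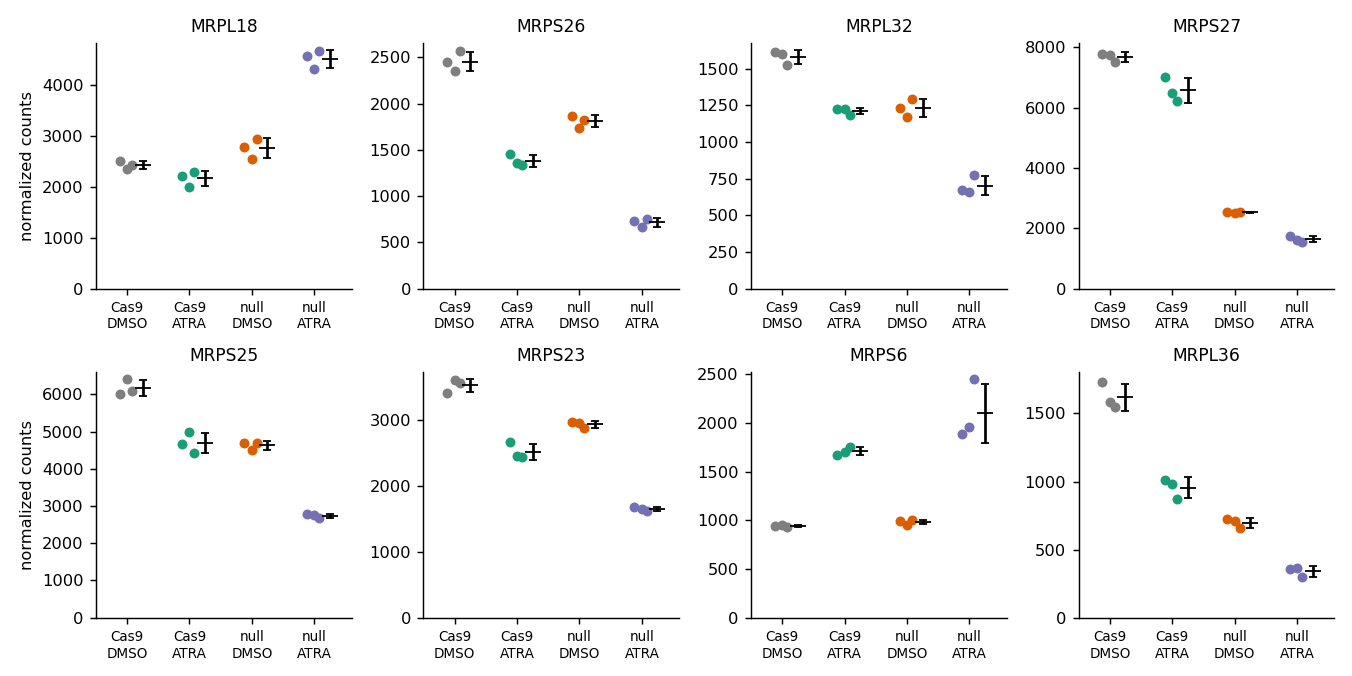
Normalized counts (y axis, from 0) of 8 members in the 4 groups (x axis, null standing for HK3-null). Coloured points are libraries and black marks give the mean with its SD over 3 libraries. The first 6 panels are the members whose interaction passed, and MRPS6 and MRPL36 follow. MRPL18 is highest in HK3-null ATRA, at 4322 to 4672, and MRPS26 is lowest there, at 661 to 752.

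Promoters of the members were compared with all others in RefSeq (GRCh38.p14), in windows of 250 bases before to 50 after each start, for 70 members with an entry. The letters CCGGAAG, core of ETS factor sites, were found on either strand in 29 of the 70 (41.4%), against 20.4% of 9718 tested coding genes and 10.7% of all 27305 promoters. GATGGCG, core of YY1 sites, was found in 22.9%, against 8.07% and 4.35%. Cytosolic ribosomal protein genes had 34.3% and 22.4%. GCATGCG, core of NRF1 sites, was found in 10% of members and 6.74% of tested coding genes, and CACGTG, the E-box, in 10% and 10.5%. Matches of different words may share bases at their ends, a match is no evidence of binding, and windows of genes that share a promoter overlap. Of the members, 26 (33.3%) start within 1000 bases of a coding gene on the other strand, against 13.6% of 11314 tested coding genes.

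The 250 bases before the starts of 4 members are shown, chosen because their RNA changed most with ATRA or differed in response between the genotypes. Capitals mark the searched words, and windows without capitals hold none of them in these 250 bases. They are MRPS26 (chr20:3045802-3046051, plus strand), MRPL32 (chr7:42932126-42932375, plus strand), MRPL18 (chr6:159789562-159789811, plus strand) and MRPS6 (chr21:34073328-34073577, plus strand), all read from the RefSeq promoters of GRCh38.p14.
MRPS26: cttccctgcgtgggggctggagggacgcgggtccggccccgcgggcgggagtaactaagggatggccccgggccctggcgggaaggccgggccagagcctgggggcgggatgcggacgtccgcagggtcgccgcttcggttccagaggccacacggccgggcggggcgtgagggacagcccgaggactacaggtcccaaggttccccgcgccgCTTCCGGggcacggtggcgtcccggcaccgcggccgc
MRPL32: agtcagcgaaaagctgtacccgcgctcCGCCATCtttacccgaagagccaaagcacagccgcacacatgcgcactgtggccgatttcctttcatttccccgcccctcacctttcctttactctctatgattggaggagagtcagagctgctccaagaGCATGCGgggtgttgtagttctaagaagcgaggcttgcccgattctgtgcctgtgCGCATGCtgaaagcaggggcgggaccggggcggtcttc
MRPL18: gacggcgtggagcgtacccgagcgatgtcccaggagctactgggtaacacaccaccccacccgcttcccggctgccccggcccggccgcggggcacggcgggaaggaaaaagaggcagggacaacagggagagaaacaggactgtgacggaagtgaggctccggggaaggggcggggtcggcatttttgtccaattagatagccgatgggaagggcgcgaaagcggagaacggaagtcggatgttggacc
MRPS6: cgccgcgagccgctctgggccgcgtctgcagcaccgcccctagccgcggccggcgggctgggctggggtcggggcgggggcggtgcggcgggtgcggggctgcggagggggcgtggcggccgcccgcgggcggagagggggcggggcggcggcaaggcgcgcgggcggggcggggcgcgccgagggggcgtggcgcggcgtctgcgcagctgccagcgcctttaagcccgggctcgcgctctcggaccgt
MRPS26 holds 1 ETS core, written on the opposite strand, and MRPL32 holds NRF1 and YY1 cores. MRPL18 and MRPS6, the members that rose with ATRA in HK3-null by the largest amounts, hold none of the words in the stretch shown. With 4 promoters this is a description of their letters alone.

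The MRPS18 genes are 3 paralogs of a single bacterial gene, and their products are found at different places in the ribosome. MRPS18A on chromosome 6 had means of 1799 ± 69.6, 1821 ± 38.5, 1932 ± 103 and 2029 ± 117 normalized counts in Cas9 control DMSO, Cas9 control ATRA, HK3-null DMSO and HK3-null ATRA (SD, n = 3). MRPS18B, also on chromosome 6, had 2880 ± 157, 2765 ± 126, 3913 ± 197 and 3438 ± 150, so that the HK3-null groups lay above the Cas9 control groups. MRPS18C on chromosome 4 had 1532 ± 143, 1326 ± 104, 1271 ± 48.0 and 1251 ± 107. It was lower in HK3-null in DMSO (-0.27; adjusted p = 0.025 in limma), which was lost without Cas9 control DMSO replicate 1 or 2 or HK3-null DMSO replicate 2 or 3 (-0.23, -0.23, -0.27 and -0.24), and in ATRA it had -0.09 ± 0.089. In none of the 3 did the interaction pass, with estimates of 0.05, -0.13 and 0.18.

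Genes of the cytosolic ribosome were the nearest comparison, taken by RPL or RPS symbols with digits together with RPSA and the RPLP genes, at the same minimum level. Of 82, 27 were lower and 10 higher in HK3-null in DMSO (27.1% and 27.9% of all tested genes), and 28 and 9 in ATRA (29.5% and 29.6%), with medians of -0.08 and -0.09. With quantile normalization the DMSO median turned to 0.03. With ATRA their median was 0.10 in Cas9 control, with 13 higher and 5 lower (20.3% and 21.3% of all tested genes), and 0.09 in HK3-null, with 14 higher and 5 lower (24.0% and 25.1%), the latter turning to -0.02 with quantile normalization. The members' own medians kept their sign under that setting, at -0.30, -0.47, -0.26 and -0.36 in the order of the comparisons above.

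The other genes of mitochondrial translation are given by lists, without a test of any list. Their counts stand against 27.1% lower and 27.9% higher of all tested genes for HK3-null in DMSO, 29.5% and 29.6% in ATRA, 21.3% and 20.3% for ATRA in Cas9 control, and 25.1% and 24.0% for ATRA in HK3-null. All 5 mitochondrial ribosomal proteins with other names (DAP3, AURKAIP1, CHCHD1, PTCD3 and GADD45GIP1) were lower in HK3-null in ATRA, and 3 were in DMSO. GADD45GIP1, also called CRIF1, had 3409, 3269 and 3331 normalized counts in Cas9 control DMSO and 2320, 2280 and 2328 in HK3-null DMSO. In ATRA it had 2550, 2523 and 2215 in Cas9 control and 1276, 1261 and 1181 in HK3-null. Of 16 translation factors, 9 were lower in HK3-null in DMSO and 12 in ATRA, where 1 was higher. With ATRA, 10 were lower in each genotype and 1 was higher in Cas9 control. The largest changes between genotypes were in MTFMT, which formylates the initiator tRNA (chromosome 15; -1.97 in DMSO and -2.14 in ATRA), GFM2, a recycling factor (chromosome 5; -1.08 and -1.10), and SLIRP, which stabilises mitochondrial mRNAs (chromosome 14; -1.02 and -1.13). Of 28 assembly and rRNA modification factors, 12 were lower and 3 higher in HK3-null in DMSO, and 14 and 1 in ATRA. Among these, NGRN on chromosome 15 changed by -1.57 and -1.36. With ATRA, 13 were lower and 2 higher in Cas9 control and 16 and 2 in HK3-null. Of 20 mitochondrial aminoacyl-tRNA synthetases and amidotransferase subunits, 11 were lower and 2 higher in HK3-null in DMSO and 14 and 2 in ATRA, with LARS2 at -0.84 and -0.86. With ATRA, 11 were lower and 1 higher in Cas9 control and 13 and 1 in HK3-null.

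Regulators and the mitochondrial mRNAs are read against the same shares of all tested genes. Of 9 genes for transcription and replication of mitochondrial DNA, 3 were lower in HK3-null in DMSO and 4 in ATRA, with POLG on chromosome 15 at -1.41 and -1.38. With ATRA, 6 were lower in Cas9 control, and 5 lower and 1 higher in HK3-null, among them POLRMT, the mitochondrial RNA polymerase (-0.51 and -0.84). Of 9 tested transcription factors linked to mitochondrial genes, 3 were lower and 1 higher in HK3-null in DMSO and 4 were lower in ATRA. With ATRA, 3 were lower and 1 higher in Cas9 control, and 4 and 1 in HK3-null. MYC, a general driver of ribosome genes on chromosome 8, had 51419, 42067 and 50378 normalized counts in Cas9 control DMSO, 12073, 9654 and 12796 in Cas9 control ATRA, 54095, 45237 and 51576 in HK3-null DMSO and 7575, 5403 and 7202 in HK3-null ATRA. Its ATRA libraries lay far under its DMSO libraries in both genotypes, while the DMSO groups of the genotypes overlapped. Its changes with ATRA were -2.06 and -2.91 (SE 0.14), and between genotypes 0.07 in DMSO and -0.78 in ATRA. The part of these genes in the members' changes was not tested.

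The mRNAs that the mitochondrial ribosome translates went another way: with ATRA, the estimates of all 13 were above 0 in both genotypes. These mRNAs, encoded by mitochondrial DNA, summed to 40365, 53222 and 46178 per 1000000 normalized counts in Cas9 control DMSO, 61341, 63652 and 57366 in Cas9 control ATRA, 52283, 48086 and 50670 in HK3-null DMSO and 55105, 56306 and 59243 in HK3-null ATRA (replicates 1 to 3). With ATRA, 7 of the 13 were higher in Cas9 control and 4 in HK3-null, with medians of 0.36 and 0.22, and of 0.27 and 0.09 with quantile normalization. COX1, the catalytic subunit of cytochrome c oxidase, changed by 0.46 ± 0.087 in Cas9 control (adjusted p = 0.00144 in limma) and by 0.22 ± 0.087 in HK3-null (0.0574). Between genotypes ND5 alone passed, lower in HK3-null by -0.52 in DMSO and -0.70 in ATRA, and the medians of the 13 were 0.10 and -0.01. Of the ribosomal RNAs of the mitochondrion, RNR2 was higher with ATRA in HK3-null (0.54 on the log2 scale).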

How the data were processed

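RNAseq libraries (3 per group) and ATACseq libraries (2 per group) of HL60 cells were grouped by their titles. The deposited RNA values are log2 of whole-number counts that the authors had scaled between libraries, with 0 written as log2 of 0.001; returned to the linear scale they are called normalized counts, and all were within 3.5e-05 of a whole number in relative terms. The study's methods name RPKM, but no scaling by gene length was seen, so a rank by counts is not a rank of expression per length. The submitters' processing notes name GRCh38, DESeq2 and MACS2, with no version. The deposited ATACseq signal is fragment density in merged regions, sampled by the authors to equal tags, and without counts its depth is unknown. Rows with no gene name, at most 0.00926% of any library, were left out.

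Members and gene lists were chosen with earlier results of these data known. Genes with a group mean log2 value over 3 in at least 1 group (13256) were fitted with limma 3.58.1 in R 4.3.3, with 1 mean per group over 12 libraries and a trended variance. P-values were Benjamini-Hochberg adjusted over all tested genes, and a gene passed at an adjusted p under 0.05. The procedure was tested on simulated data. Named members were those with the largest changes per comparison (6) or interaction (4), all on chromosomes with a common shift, the MRPS18 genes, and the 3 highest and 3 lowest in mean count; the other lists gave up to 3 genes each, and genes outside this rule are named as such. Neighbours, slopes, motifs and figures used Python 3.11.15, numpy 2.4.6, pandas 2.3.3 and matplotlib 3.10.9. Positions are those of RefSeq (GRCh38.p14). Distances between the starts of genes on opposite strands, and shared exons, were taken from canonical transcripts of GENCODE.

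Replicate numbers recur in all groups. Deviations from group means over 10667 genes correlated at 0.16 to 0.62 for all 18 pairs of libraries with the same number and at -0.63 to 0.28 for the 36 others, so the numbers pair the libraries, and a fit with the replicate number as a block was run beside the unblocked one. Other alternatives were quantile normalization, other thresholds and filters, removal of each chromosome's median change, other numbers of neighbours, and leaving out each library. Where no setting is named, calls, SE and adjusted p-values are those of the unblocked fit, which does not use the pairing.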

Additional observations from a re-analysis of the deposited data

Results flagged for a closer look

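The change with ATRA differed between HK3-null and Cas9 control, by the interaction test in limma, in 6 of the 78 members, against 9.12% of all tested genes. With the replicate block it did so in 20 (2 higher, 18 lower), against 10.3% higher and 11.5% lower of all tested genes in that fit. The difference in log2 change was 0.88 for MRPL18, which was higher with ATRA in HK3-null. It was -0.51 for MRPS26, -0.43 for MRPL32, -0.41 for MRPS27, -0.37 for MRPS25 and -0.34 for MRPS23, all of which fell more with ATRA in HK3-null. MRPL18 lies on chromosome 6 and MRPS27 on chromosome 5, where tested genes shifted between the genotypes, and the other 4 lie elsewhere.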

How the results depend on the processing

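Counts of members that passed in either direction ranged, on leaving out 1 library at a time, from 56 to 63 between the genotypes in DMSO, 65 to 72 in ATRA, 46 to 58 for ATRA in Cas9 control, 56 to 63 for ATRA in HK3-null, and 6 to 7 for the interaction. With a fold threshold of 1.5 they were 18, 29, 9, 23 and 1, with an adjusted or an unadjusted p. At 2-fold they were 8, 11, 0, 4 and 0 in limma, where the largest absolute log2 change was 0.85 for ATRA in Cas9 control and 0.88 for the interaction, so that the counts of 0 stood with an unadjusted p as well. The interaction passed in 13 members with quantile normalization and in 20 with the replicate block. In the blocked fit 10.3% of all tested genes passed as higher and 11.5% as lower. The block moved no other count of members, taken over both directions, by over 1.5 times. By direction, members higher with ATRA in Cas9 control went from 1 to 2. The slope on neighbours in DMSO and ATRA was 0.92 and 0.93 with 10 neighbours on each side and 1.05 and 1.08 with 40, and 0.99 in DMSO with quantile normalization. When each chromosome's median change was taken away, 16 positive values on chromosomes 6 and 8, each smaller than its chromosome's median, turned negative. In DMSO and ATRA these were MRPL13 (-0.15 and -0.09), MRPL15 (-0.64 and -0.81), MRPS28 (-0.53 and -0.43), MRPS10 (-0.059 and -0.13), MRPS18B (-0.094 and -0.25), MRPS18A (-0.43 and -0.41) and MRPL14 (-0.19 and -0.18), and in DMSO alone MRPL18 (-0.36) and MRPL2 (-0.53). Over all alternatives for single named members, 2512 values kept direction and side of the threshold, 47 lost a call and 35 gained one. Precision rests on 3 libraries per group.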
